A study of Mus musculus with 10 samples.

Results

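The genes described here are 48 genes of DNA replication and nucleotide synthesis, a list drawn up by function from the S phase machinery and read in mouse splenic CD4+ T cells. A named probe set was found for 47 of the 48, out of 17097 genes with a named probe set, and each gene is represented by its brightest probe set over the 10 arrays. Chaf1a, a subunit of the histone chaperone that follows the fork, has no named probe set here and gets no value. All 47 measured genes were among the 11037 tested, those above the median of their array on at least 2 arrays. Cdc6, Ccne2 and E2f1 lay under the median on all 4 CD4+ arrays and passed through the arrays of the sorted subsets, so these 3 entered the test because they were brighter there.

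All mice were of the DBA/1 strain, and all cells came from the spleen. CD49b+ cells were sorted from CD4+ cells of injected mice (3 arrays), and CD49b is the alpha 2 integrin chain encoded by Itga2. CD25+ cells were sorted the same way (3 arrays), and CD25 is a chain of the interleukin 2 receptor, the product of Il2ra. CD4+ cells of injected mice (2 arrays) and CD4+ cells of naive, uninjected mice (2 arrays) were the wider populations. Each injected mouse was given 500000 immature dendritic cells by the intraperitoneal route on 3 occasions, 7, 5 and 3 days before the cells were taken. The labels do not say that the CD4+ cells of injected mice had been depleted of the CD49b+ or CD25+ cells, and they give no age. Each sort used a pool of several mice, and nothing in the labels says that replicates came from separate pools, so the p-values measure only how far these samples differed from each other, which may be technical.

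Replication starts at origins, where the origin recognition complex, Cdc6 and Cdt1 load the MCM helicase in G1. Kinases then turn the loaded helicase into a moving one with Cdc45 and the GINS complex, and polymerases, a sliding clamp, a ligase and a supply of deoxynucleotides copy the strands. In resting T cells most of these genes are held low, and many of them are known targets of E2F transcription factors, which are freed when a T cell is activated and enters the cell cycle.

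Because E2F control is the textbook link among these genes, their promoters were read from RefSeq (GRCm38.p6). Each ran from 250 bases before to 50 bases after a listed start, and 38 of the 47 measured genes were matched. The words TTCGCGC or TTGGCGC or TTCCCGC or TTGCCGC were searched on both strands with overlaps allowed. They stood in a promoter of 23 of the 38 genes (60.5%), against 18.8% of 8936 tested genes and 10.9% of all 27025 listed genes. A gene with several listed starts counted where any of its promoters held a word. With the first pair of words alone the shares were 36.8%, 8.09% and 4.47%. The promoters of 4 genes, chosen after their values were seen, are printed with the matched words in capitals, and a longer capital run holds overlapping words on opposite strands. Mcm6 (chr1:128359656-128359955, minus strand) and Mcm5 (chr8:75109259-75109558, plus strand) held 5 and 3 matches, and both were called higher in the sorted subsets. Cdt1 (chr8:122567765-122568064, plus strand) held 2 matches and was not called, and Pole2 (chr12:69228141-69228440, minus strand) held 1 and was called lower. Tk1 and Tyms, called higher in both subsets, held 0 matches. A match was found for 62.5% of the 24 genes called higher in both subsets and for 57.1% of the other 14. Whether matches go with the calls was not tested, and a match is a description of these letters and not a measured binding site.
Mcm6: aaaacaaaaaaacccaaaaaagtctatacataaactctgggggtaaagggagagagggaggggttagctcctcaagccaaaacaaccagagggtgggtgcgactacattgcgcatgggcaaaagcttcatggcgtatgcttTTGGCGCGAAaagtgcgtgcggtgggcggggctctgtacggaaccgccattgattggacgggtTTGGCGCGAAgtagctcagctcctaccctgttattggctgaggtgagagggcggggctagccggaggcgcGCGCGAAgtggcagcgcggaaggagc
Mcm5: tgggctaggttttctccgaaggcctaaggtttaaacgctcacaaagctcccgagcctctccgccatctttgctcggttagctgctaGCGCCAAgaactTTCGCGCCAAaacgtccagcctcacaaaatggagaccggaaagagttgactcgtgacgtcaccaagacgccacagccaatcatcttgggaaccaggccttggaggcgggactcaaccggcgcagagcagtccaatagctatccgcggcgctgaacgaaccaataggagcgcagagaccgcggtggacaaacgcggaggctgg
Cdt1: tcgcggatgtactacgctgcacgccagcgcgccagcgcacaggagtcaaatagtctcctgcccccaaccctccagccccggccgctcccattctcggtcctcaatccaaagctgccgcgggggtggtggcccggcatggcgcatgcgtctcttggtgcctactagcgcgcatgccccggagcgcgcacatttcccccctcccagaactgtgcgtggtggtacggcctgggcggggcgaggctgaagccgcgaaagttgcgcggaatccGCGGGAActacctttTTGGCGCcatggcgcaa
Pole2: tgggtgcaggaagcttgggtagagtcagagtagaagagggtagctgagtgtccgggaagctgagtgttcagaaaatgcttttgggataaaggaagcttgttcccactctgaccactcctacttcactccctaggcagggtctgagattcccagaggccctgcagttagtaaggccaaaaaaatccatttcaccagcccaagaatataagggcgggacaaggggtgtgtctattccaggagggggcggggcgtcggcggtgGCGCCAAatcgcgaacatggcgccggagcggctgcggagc

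Values are on the log2 scale, where a difference of 1 is a 2-fold one, and the small number of arrays limits their precision. The median over all probe sets was 4.61 to 4.62 on the CD49b+ arrays, 4.64 to 4.65 on the CD25+ arrays, 4.80 to 4.81 in CD4+ cells of injected mice and 4.79 to 4.80 in CD4+ cells of naive mice. Cd3e, which encodes a CD3 chain, averaged between 9.45 and 9.62 in all 4 groups. Il2ra averaged 6.29 in CD49b+ cells, 8.83 in CD25+ cells and 4.17 in both CD4+ groups, and Foxp3, the regulatory T cell factor, averaged 6.45, 8.25, 4.64 and 4.92 in the same order. Itga2, which encodes the marker of the CD49b+ sort, averaged 5.78 in CD49b+ cells and 5.82 in CD4+ cells of injected mice (difference -0.05 ± 0.11 SE, adjusted p = 0.717), so its transcript did not mark that sort against bulk CD4+ cells. Mki67, a proliferation marker, averaged 10.51 in CD49b+ cells, 9.50 in CD25+ cells, 6.32 in CD4+ cells of injected mice and 7.40 in CD4+ cells of naive mice. In these bulk samples a larger share of cells with a transcript and more RNA per cell cannot be told apart.

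The first question was how far the replication genes differed between each sorted subset and the CD4+ cells of the same injected mice. A gene was taken as called where limma's two-sided p, adjusted by the Benjamini-Hochberg method over all tested genes, was under 0.05. In CD49b+ cells, 35 of the 47 genes were called higher than in CD4+ cells, where 29.9% of all tested genes were called higher. Of these, 25 genes were called and at least 2-fold higher, against 7.05% of all tested genes. The 35 include Cdc6, Ccne2 and E2f1, which entered the test through the subset arrays and are no support. A single member, Pole2, was called lower, against 23.5% of all tested genes, and 11 were not called. The median log2 difference of the 47 genes was 1.15, against 0.03 over all tested genes, and the values ran from -0.66 for Pole2 to 3.68 for Rrm2.

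In CD25+ cells, 34 of the 47 genes were called higher than in CD4+ cells of injected mice, against 20.8% of all tested genes. Of these, 22 were at least 2-fold higher, against 5.08% of all tested genes. Cdc6, Ccne2 and E2f1 are among the 34 too, and are again no support. Pole2 was again the single member called lower, against 17.8% of all tested genes. The median difference was 0.77, against 0.02 over all tested genes, with a range from -1.27 for Pole2 to 2.92 for Uhrf1. Both comparisons share the same 2 CD4+ arrays, so their values are given side by side and no overlap is read from them.

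When every array was centred on its own median, 41 members were called higher and 1 lower in CD49b+ cells, and 39 and 1 in CD25+ cells. The split over all tested genes then moved to 4895 higher and 1357 lower, from 3300 and 2592, for CD49b+ cells, and to 3961 and 1076, from 2297 and 1964, for CD25+ cells. Without CD4+ injected replicate 1, the count of members called higher in CD25+ cells was 26 in place of 34.

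**Figure D1:**
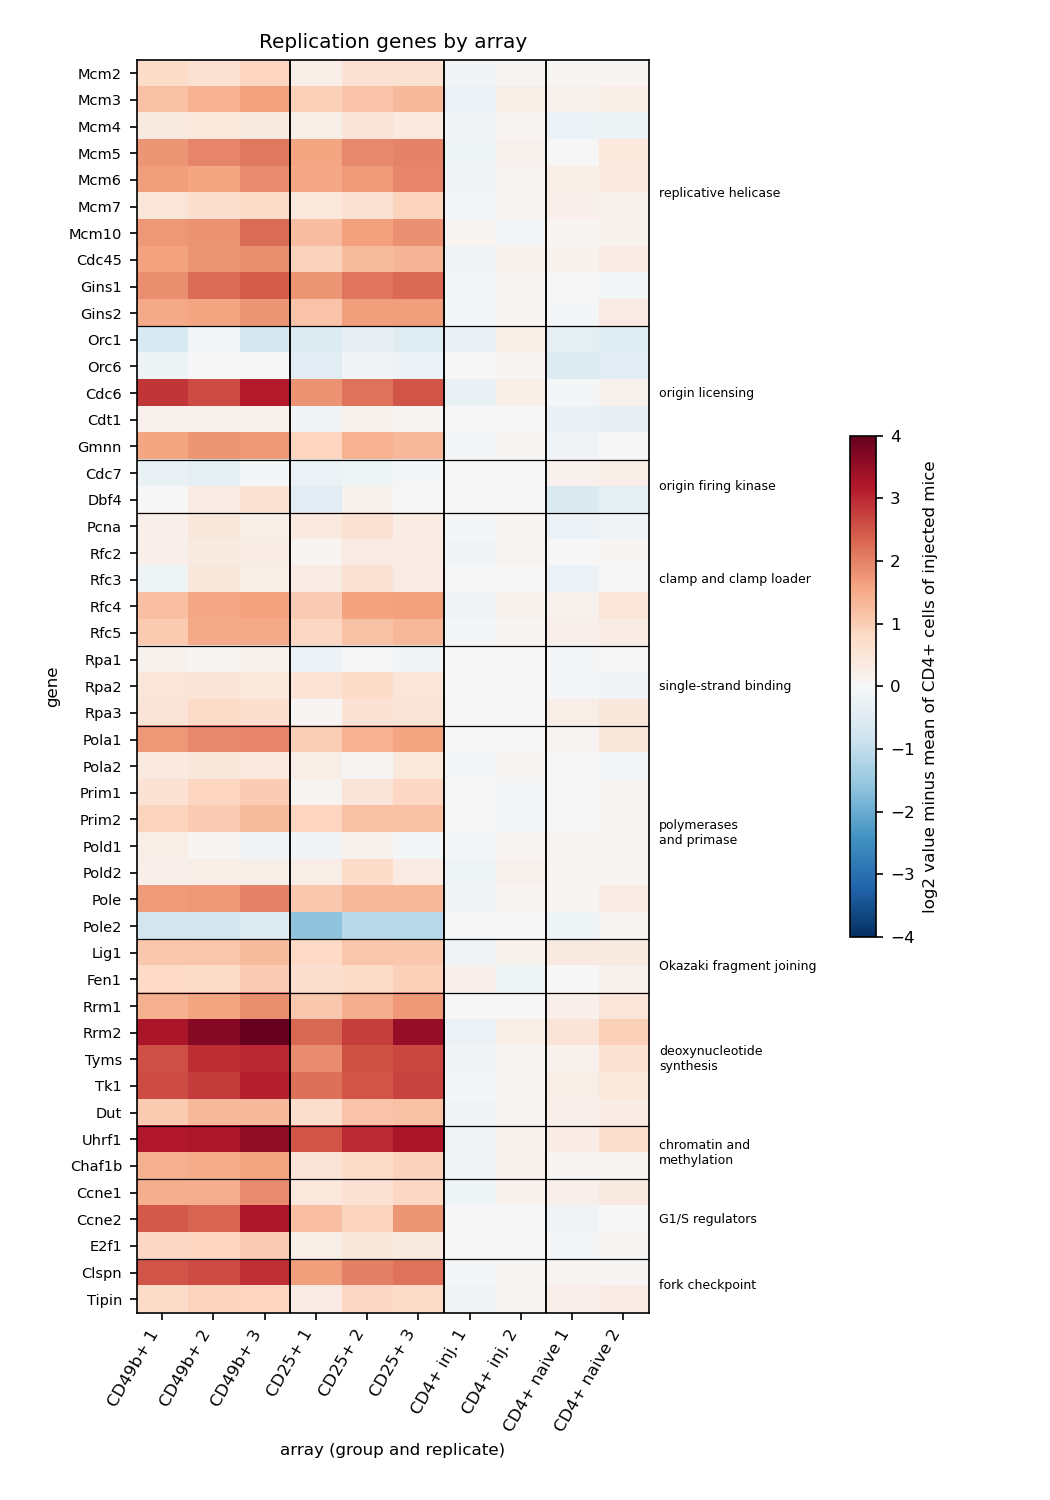
Each row is a gene and each column an array, grouped by role from top to bottom, and colour gives the log2 value minus the mean of CD4+ cells of injected mice. Most rows are red on the 6 subset arrays, with the deepest colour for Rrm2 and Uhrf1, while Pole2 is blue there, with group differences of -0.66 and -1.27.

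**Figure D2:**
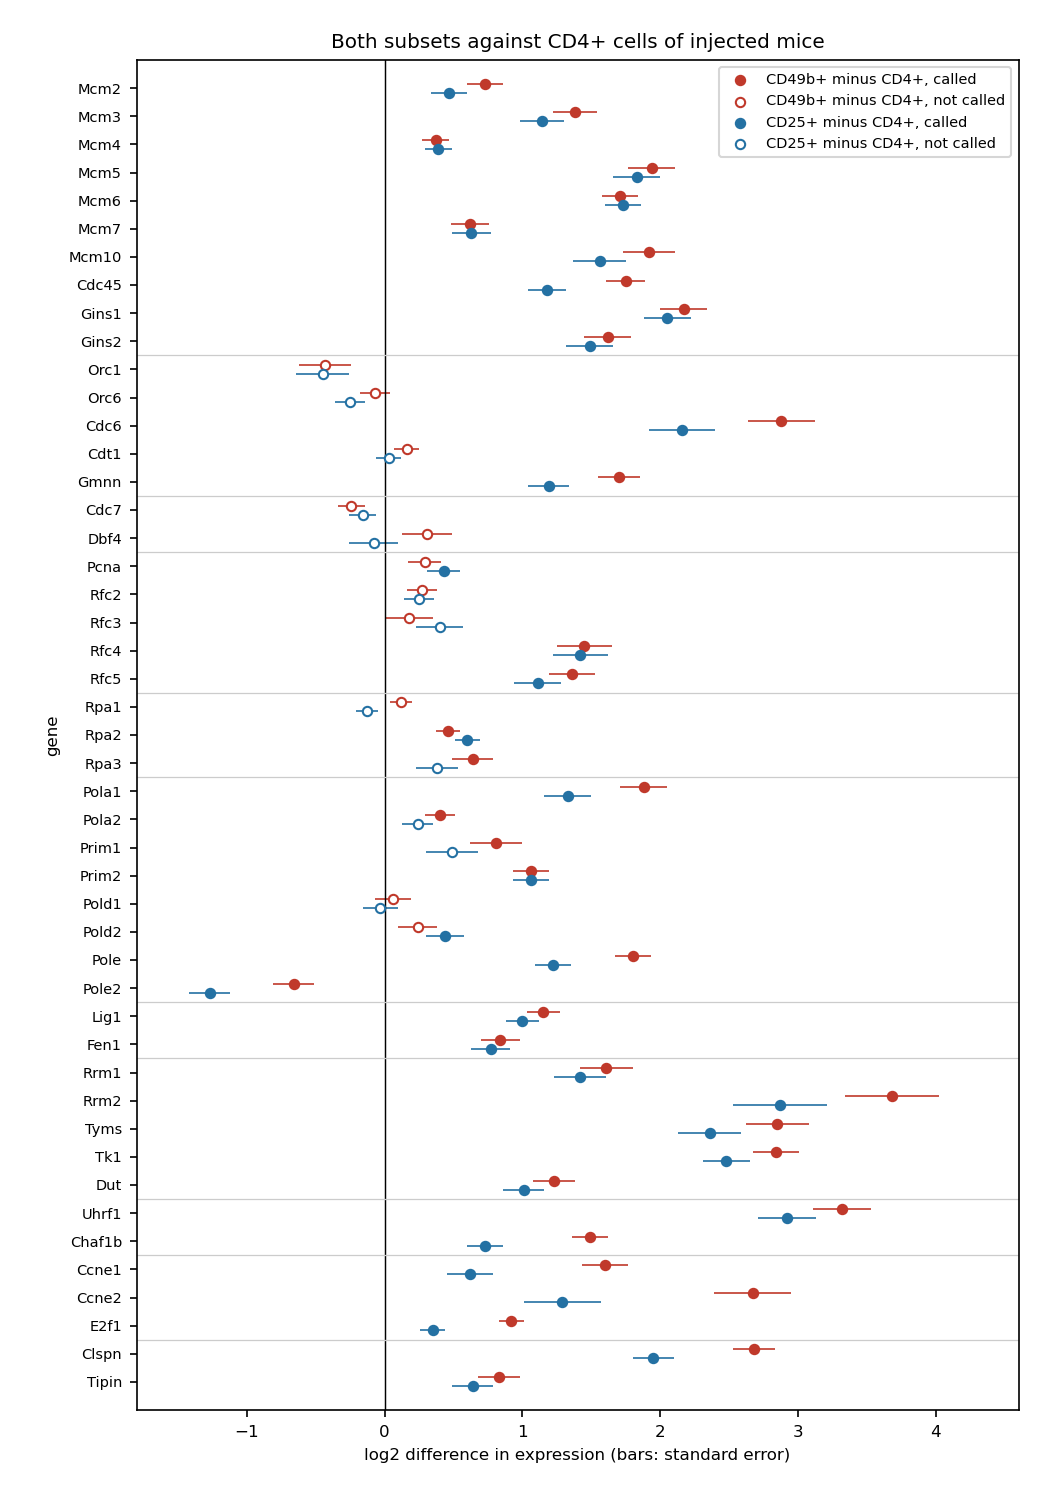
Points give the log2 difference of CD49b+ (red) and CD25+ (blue) cells from CD4+ cells of injected mice for each gene, bars the standard error, and filled points the genes called at an adjusted p under 0.05. All 10 listed helicase genes at the top are filled in both colours. The open points lie in the licensing, firing kinase, clamp and loader, single-strand binding, and polymerase and primase rows. They run from -0.45 for Orc1 to 0.49 for Prim1, both in CD25+ cells.

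The deoxynucleotide genes had the largest median difference of the 11 roles in both subsets. All 5 were called higher and at least 2-fold higher in each, with a median of 2.84 in CD49b+ cells and 2.36 in CD25+ cells. Rrm2 is the small subunit of ribonucleotide reductase, whose level rises in S phase. The gene (Entrez gene 20135) read 9.63, 10.00 and 10.49 in CD49b+ cells, 8.66, 9.14 and 9.87 in CD25+ cells, 6.11 and 6.61 in CD4+ cells of injected mice, and 6.87 and 7.31 in CD4+ cells of naive mice. All 6 subset arrays lay above all 4 CD4+ arrays, and the CD49b+ and CD25+ values overlapped. It was 12.8-fold higher in CD49b+ cells (3.68 ± 0.34 SE, adjusted p = 2.47e-05) and 7.29-fold higher in CD25+ cells (2.87 ± 0.34, adjusted p = 0.000189).

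Tyms, thymidylate synthase, makes dTMP from dUMP. It read 8.58, 8.94 and 9.01 in CD49b+ cells, 7.89, 8.53 and 8.65 in CD25+ cells, 5.88 and 6.10 in CD4+ cells of injected mice, and 6.16 and 6.61 in CD4+ cells of naive mice, a gap of more than a full log2 unit between the subsets and all CD4+ arrays. The differences from CD4+ cells of injected mice were 2.85 ± 0.23 in CD49b+ cells (adjusted p = 1.05e-05) and 2.36 ± 0.23 in CD25+ cells (adjusted p = 5.5e-05). Tk1, the cytosolic thymidine kinase of the salvage pathway, read 7.07, 7.27 and 7.57 in CD49b+ cells, 6.67, 6.99 and 7.16 in CD25+ cells, 4.42 and 4.51 in CD4+ cells of injected mice, and 4.70 and 4.88 in CD4+ cells of naive mice. Its differences were 2.84 ± 0.17 (adjusted p = 1.34e-06) and 2.48 ± 0.17 (adjusted p = 5.12e-06). Its values in CD4+ cells of injected mice lay under the array medians of 4.80 and 4.81, so these differences rest on dim CD4+ values. Rrm1, the large subunit of the same reductase, and Dut, which removes dUTP, were higher by 1.61 and 1.23 in CD49b+ cells and by 1.42 and 1.01 in CD25+ cells.

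All genes of the replicative helicase were called, 10 of 10 higher in CD49b+ cells (median 1.66) and 10 of 10 higher in CD25+ cells (median 1.34). Gins1, a GINS subunit, read 6.70, 7.06 and 7.25 in CD49b+ cells, 6.58, 6.98 and 7.09 in CD25+ cells, 4.79 and 4.88 in CD4+ cells of injected mice, and 4.80 and 4.79 in CD4+ cells of naive mice. The CD4+ arrays lay close together and all subset arrays lay far above them, with differences of 2.17 ± 0.17 in CD49b+ cells (adjusted p = 9.69e-06) and 2.05 ± 0.17 in CD25+ cells (adjusted p = 2.35e-05). Mcm5, a subunit of the MCM ring, read 7.82, 8.01 and 8.17 in CD49b+ cells, 7.65, 7.98 and 8.03 in CD25+ cells, 5.89 and 6.22 in CD4+ cells of injected mice, and 6.08 and 6.48 in CD4+ cells of naive mice. Its subset values overlapped each other and not the CD4+ values, and the differences were 1.94 ± 0.17 and 1.83 ± 0.17 (adjusted p = 1.61e-05 and 4e-05). Mcm10, which helps to start the helicase, read 6.96, 7.03 and 7.46 in CD49b+ cells, 6.45, 6.87 and 7.07 in CD25+ cells, 5.31 and 5.15 in CD4+ cells of injected mice, and 5.30 and 5.37 in CD4+ cells of naive mice. It was 3.79-fold higher in CD49b+ cells and 2.95-fold higher in CD25+ cells.

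The other ring subunits had smaller or similar differences. In CD49b+ and CD25+ cells, the differences were 0.73 and 0.47 for Mcm2, 1.38 and 1.14 for Mcm3, 0.37 and 0.39 for Mcm4, 1.71 and 1.73 for Mcm6, and 0.62 and 0.63 for Mcm7. The probe sets used for Mcm2, Mcm7, Gins2 and Tyms are of a type that can match more than 1 transcript. The other probe set of Mcm2 gave 1.25 and 1.04, both called (limma, adjusted p over all probe sets 0.000351 and 0.00151). Without CD4+ injected replicate 1, Mcm2, Mcm4 and Mcm7 were no longer called in CD25+ cells (adjusted p = 0.137, 0.126 and 0.0575), and Mcm4 was no longer called in CD49b+ cells. Quantile normalization also ended the CD49b+ call of Mcm4 (adjusted p = 0.0605). Cdc45 and Gins2, which complete the moving helicase, were higher by 1.75 and 1.62 in CD49b+ cells and by 1.18 and 1.49 in CD25+ cells.

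The licensing genes divided. Cdc6, the ATPase that loads the MCM ring, and Gmnn, geminin, the inhibitor of Cdt1, were called higher in both subsets, and Cdt1, Orc1 and Orc6 were called in neither. Cdc6 read 7.11, 6.86 and 7.43 in CD49b+ cells, 6.05, 6.42 and 6.79 in CD25+ cells, 4.0 and 4.51 in CD4+ cells of injected mice, and 4.21 and 4.43 in CD4+ cells of naive mice. The 4 groups fell into separate bands apart from the CD4+ pair, with differences of 2.88 ± 0.24 (adjusted p = 1.12e-05) and 2.16 ± 0.24 (adjusted p = 0.000105). Gmnn read 8.91, 9.09 and 9.06 in CD49b+ cells, 8.18, 8.72 and 8.63 in CD25+ cells, 7.23 and 7.41 in CD4+ cells of injected mice, and 7.18 and 7.35 in CD4+ cells of naive mice. It was 3.24-fold higher in CD49b+ cells and 2.28-fold higher in CD25+ cells (adjusted p = 1.89e-05 and 0.000274).

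Cdt1, the loading factor that geminin binds, differed from CD4+ cells of injected mice by 0.16 ± 0.09 in CD49b+ cells (adjusted p = 0.156) and by 0.03 ± 0.09 in CD25+ cells (adjusted p = 0.822). Its means were 10.19, 10.05, 10.02 and 9.72 in CD49b+, CD25+, injected CD4+ and naive CD4+ cells, so the subsets and the CD4+ cells of injected mice lay close together and the naive cells lowest. Against naive cells Cdt1 was called higher, by 0.47 in CD49b+ cells and 0.33 in CD25+ cells (adjusted p = 0.00251 and 0.0199). Orc6, a subunit of the origin recognition complex, read 7.28, 7.51 and 7.47 in CD49b+ cells, 7.05, 7.39 and 7.27 in CD25+ cells, 7.46 and 7.53 in CD4+ cells of injected mice, and 6.95 and 7.06 in CD4+ cells of naive mice. Its subset means of 7.42 and 7.24 lay between those of injected (7.49) and naive (7.01) CD4+ cells, and the CD49b+ difference of -0.07 against injected mice was 0.41 and called (adjusted p = 0.0141) against naive mice. For Orc1 the used probe set gave -0.43 and -0.45, neither called.

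The origin firing kinase had no member called in either subset against CD4+ cells of injected mice, and calls for both against CD4+ cells of naive mice. Dbf4, the regulatory subunit, read 8.61, 8.91 and 9.16 in CD49b+ cells, 8.18, 8.73 and 8.60 in CD25+ cells, 8.56 and 8.61 in CD4+ cells of injected mice, and 8.02 and 8.19 in CD4+ cells of naive mice. The CD49b+ values reached from the level of injected CD4+ cells upwards (0.31 ± 0.18, adjusted p = 0.177), and the CD25+ values straddled it (-0.08 ± 0.18, adjusted p = 0.747). Cdc7, the catalytic subunit, read 7.71, 7.58 and 7.90 in CD49b+ cells, 7.74, 7.81 and 7.89 in CD25+ cells, 7.96 and 7.97 in CD4+ cells of injected mice, and 8.14 and 8.25 in CD4+ cells of naive mice. All 6 subset arrays lay below all 4 CD4+ arrays, but the differences of -0.24 ± 0.10 and -0.16 ± 0.10 did not pass the test (adjusted p = 0.0746 and 0.259). With quantile normalization the CD49b+ difference of Cdc7 was -0.33 and called lower (adjusted p = 0.0253). Against CD4+ cells of naive mice, Dbf4 was higher in CD49b+ cells by 0.79 (adjusted p = 0.00575), with 0.40 in CD25+ cells (adjusted p = 0.118), and Cdc7 was lower, with -0.46 and -0.38 (adjusted p = 0.00481 and 0.0182).

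**Figure D3:**
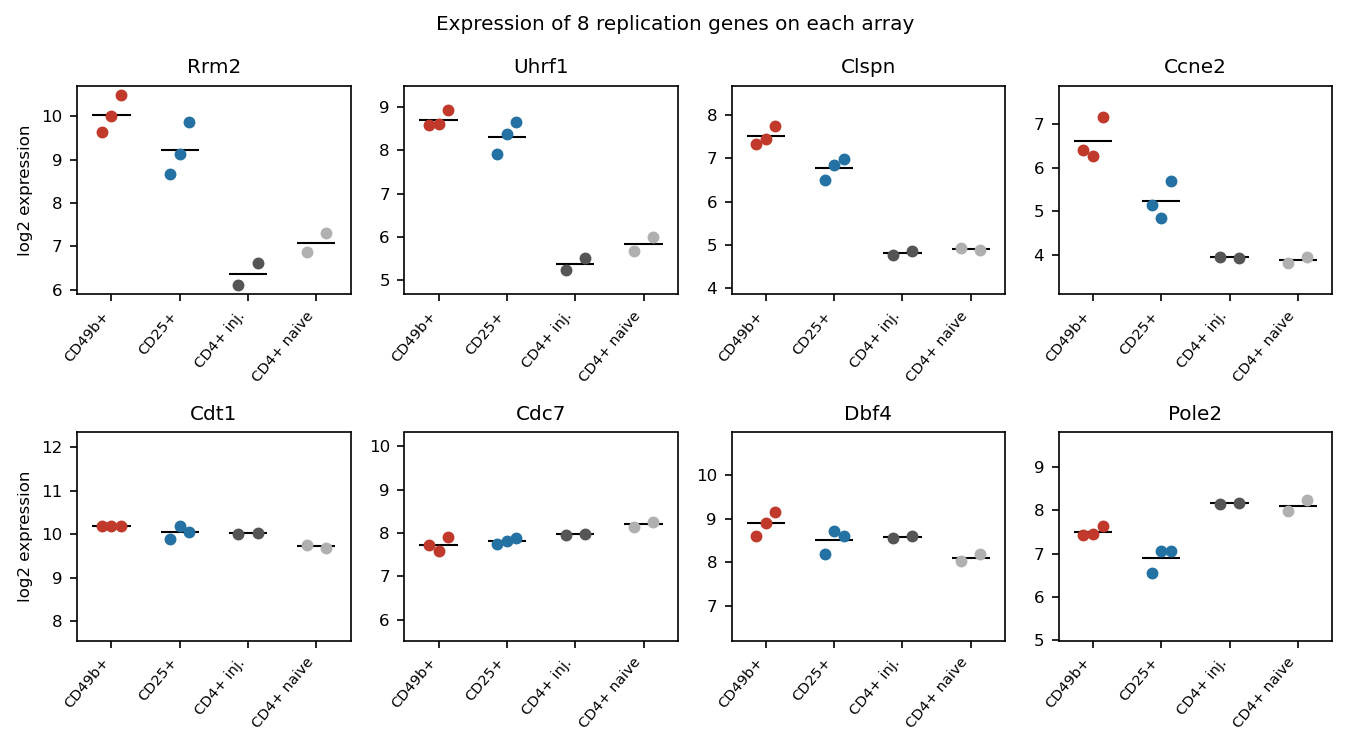
Log2 expression of 8 genes on each array, with a point per array, a line at the group mean and the same height of axis in every panel. Rrm2, Uhrf1, Clspn and Ccne2 lie higher on the subset arrays than on all CD4+ arrays, Cdt1, Cdc7 and Dbf4 were not called against CD4+ cells of injected mice, and Pole2 lies lower, with its lowest array at 6.55 in CD25+ cells.

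All 3 G1/S regulators were called higher in each subset, but Ccne2 and E2f1 entered the test through the subset arrays, so this count is no support for the role. Ccne2, cyclin E2, which drives entry into S phase with its kinase partner, read 6.40, 6.27 and 7.16 in CD49b+ cells, 5.14, 4.84 and 5.70 in CD25+ cells, 3.95 and 3.93 in CD4+ cells of injected mice, and 3.81 and 3.94 in CD4+ cells of naive mice. The CD49b+, CD25+ and CD4+ arrays did not overlap, with differences of 2.67 ± 0.28 in CD49b+ cells (adjusted p = 4.82e-05) and 1.29 ± 0.28 in CD25+ cells (adjusted p = 0.00534). Ccne1, cyclin E1, read 6.49, 6.49 and 6.92 in CD49b+ cells, 5.46, 5.62 and 5.87 in CD25+ cells, 4.87 and 5.20 in CD4+ cells of injected mice, and 5.24 and 5.40 in CD4+ cells of naive mice. It was 3.03-fold higher in CD49b+ cells and 1.53-fold higher in CD25+ cells, and the CD25+ call was lost without CD4+ injected replicate 1 (adjusted p = 0.135) and against CD4+ cells of naive mice (0.33, adjusted p = 0.161).

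E2f1, an activating E2F factor, read 5.51, 5.55 and 5.71 in CD49b+ cells, 4.90, 5.13 and 5.04 in CD25+ cells, 4.67 and 4.68 in CD4+ cells of injected mice, and 4.64 and 4.73 in CD4+ cells of naive mice. The CD49b+, CD25+ and CD4+ arrays did not overlap, although the values were low on every array, and the differences were 0.92 ± 0.09 (adjusted p = 4.08e-05) and 0.35 ± 0.09 (adjusted p = 0.0153). Its CD25+ call was lost without either CD4+ injected replicate (adjusted p up to 0.0755), and its other probe set gave -0.07 in CD25+ cells.

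Of the genes that copy chromatin and methylation, Uhrf1, which brings the maintenance methyltransferase to new DNA, read 8.57, 8.61 and 8.92 in CD49b+ cells, 7.91, 8.37 and 8.64 in CD25+ cells, 5.24 and 5.52 in CD4+ cells of injected mice, and 5.67 and 6.01 in CD4+ cells of naive mice. It was 9.95-fold higher in CD49b+ cells (3.32 ± 0.21, adjusted p = 1.96e-06) and 7.59-fold higher in CD25+ cells (2.92 ± 0.21, adjusted p = 7.81e-06). Chaf1b, a subunit of chromatin assembly factor 1, read 6.55, 6.62 and 6.71 in CD49b+ cells, 5.65, 5.90 and 6.04 in CD25+ cells, 4.98 and 5.29 in CD4+ cells of injected mice, and 5.17 and 5.22 in CD4+ cells of naive mice. Both subsets lay above the CD4+ arrays without overlap, by 1.49 ± 0.13 and 0.73 ± 0.13 (adjusted p = 1.47e-05 and 0.00173). With the mean of its 2 probe sets, 1 of them dim, the CD25+ difference of Chaf1b was 0.22 and not called (adjusted p = 0.117).

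Both fork checkpoint genes were called higher. Clspn, claspin, which carries the checkpoint signal from the fork, read 7.32, 7.44 and 7.75 in CD49b+ cells, 6.50, 6.84 and 6.98 in CD25+ cells, 4.78 and 4.87 in CD4+ cells of injected mice, and 4.92 and 4.88 in CD4+ cells of naive mice. No group of arrays overlapped another, although the 2 CD4+ groups lay close together. The differences from CD4+ cells of injected mice were 2.68 ± 0.15 and 1.95 ± 0.15 (adjusted p = 1.19e-06 and 1.38e-05). Tipin, which holds the fork complex together with Timeless, read 9.28, 9.41 and 9.39 in CD49b+ cells, 8.86, 9.35 and 9.31 in CD25+ cells, 8.42 and 8.64 in CD4+ cells of injected mice, and 8.72 and 8.87 in CD4+ cells of naive mice. CD25+ replicate 1 lay at the level of naive CD4+ cells, and the differences of 0.83 and 0.64 were called (adjusted p = 0.00113 and 0.00661), the CD25+ one not without CD4+ injected replicate 1 (adjusted p = 0.0631) or against CD4+ cells of naive mice (0.38, adjusted p = 0.0719).

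Among the polymerases and primase, 5 of 8 genes were called higher and 1 lower in CD49b+ cells, and 4 higher and 1 lower in CD25+ cells. Of all tested genes, 29.9% and 20.8% were called higher and 23.5% and 17.8% lower. Pola1, the catalytic subunit of polymerase alpha, which extends the primer, read 7.79, 7.98 and 8.01 in CD49b+ cells, 7.04, 7.44 and 7.64 in CD25+ cells, 6.07 and 6.02 in CD4+ cells of injected mice, and 6.17 and 6.50 in CD4+ cells of naive mice. The bands did not overlap between the subsets or with CD4+ cells of injected mice, and the differences were 1.88 ± 0.17 and 1.33 ± 0.17 (adjusted p = 1.82e-05 and 0.000252). Pole, the catalytic subunit of the leading strand polymerase epsilon, read 6.88, 6.91 and 7.16 in CD49b+ cells, 6.26, 6.47 and 6.48 in CD25+ cells, 5.06 and 5.30 in CD4+ cells of injected mice, and 5.25 and 5.47 in CD4+ cells of naive mice. It was 3.49-fold higher in CD49b+ cells and 2.33-fold higher in CD25+ cells (adjusted p = 4e-06 and 7.58e-05).

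Pole2, the second subunit of polymerase epsilon, went the other way from its catalytic partner. The gene (Entrez gene 18974) read 7.43, 7.44 and 7.63 in CD49b+ cells, 6.55, 7.05 and 7.06 in CD25+ cells, 8.15 and 8.17 in CD4+ cells of injected mice, and 7.98 and 8.23 in CD4+ cells of naive mice. Every subset array lay below every CD4+ array, with differences of -0.66 ± 0.15 in CD49b+ cells (adjusted p = 0.00539) and -1.27 ± 0.15 in CD25+ cells (adjusted p = 0.000203). A dimmer probe set of Pole2, which did not pass the filter, gave -0.74 and -0.78. The call held in each fit that left out 1 array.

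The other polymerase genes ran from no difference to a 2-fold one. Prim2, the large primase subunit, was higher by 1.06 ± 0.13 in both subsets, and Prim1, the catalytic one, by 0.81 ± 0.19 in CD49b+ cells (adjusted p = 0.00526) and 0.49 ± 0.19 in CD25+ cells (adjusted p = 0.0665). Pola2, the accessory subunit of polymerase alpha, gave 0.40 ± 0.11 (adjusted p = 0.00987) and 0.24 ± 0.11 (adjusted p = 0.104). For Pold2, an accessory subunit of the lagging strand polymerase delta, the values were 0.24 (adjusted p = 0.19) and 0.44 (adjusted p = 0.0361), and Pold1, its catalytic subunit, gave 0.06 and -0.03, neither called. The call of Pold2 was lost in 4 of the fits that left out 1 array (adjusted p up to 0.267) and against CD4+ cells of naive mice (0.38, adjusted p = 0.0716), and that of Pola2 without CD4+ injected replicate 1.

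The genes that join Okazaki fragments, the short pieces of the lagging strand, were both called. Lig1, the ligase, read 8.61, 8.65 and 8.81 in CD49b+ cells, 8.34, 8.64 and 8.63 in CD25+ cells, 7.39 and 7.69 in CD4+ cells of injected mice, and 7.90 and 7.89 in CD4+ cells of naive mice. Fen1, the flap nuclease, read 7.51, 7.46 and 7.71 in CD49b+ cells, 7.34, 7.45 and 7.65 in CD25+ cells, 6.90 and 6.53 in CD4+ cells of injected mice, and 6.73 and 6.87 in CD4+ cells of naive mice. In both, the 6 subset arrays overlapped each other and lay above all CD4+ arrays. The differences were 1.15 ± 0.12 and 1.00 ± 0.12 for Lig1 and 0.84 ± 0.14 and 0.77 ± 0.14 for Fen1 (adjusted p between 5.64e-05 and 0.00179).

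Of the clamp and its loader, 2 of 5 genes were called higher in CD49b+ cells and 3 of 5 in CD25+ cells. The shares of all tested genes were 29.9% and 20.8%, so the CD49b+ count was near that of all genes. Rfc4, a loader subunit, read 7.49, 7.85 and 7.91 in CD49b+ cells, 7.32, 7.91 and 7.93 in CD25+ cells, 6.15 and 6.44 in CD4+ cells of injected mice, and 6.47 and 6.77 in CD4+ cells of naive mice. Rfc5, another loader subunit, read 7.31, 7.76 and 7.79 in CD49b+ cells, 7.08, 7.44 and 7.60 in CD25+ cells, 6.20 and 6.33 in CD4+ cells of injected mice, and 6.47 and 6.56 in CD4+ cells of naive mice. These 2 separated the subsets from all CD4+ arrays, with differences of 1.45 ± 0.20 and 1.42 ± 0.20 for Rfc4 and 1.36 ± 0.17 and 1.11 ± 0.17 for Rfc5 (adjusted p between 0.00017 and 0.000907). Pcna, the sliding clamp itself, read 11.75, 12.02 and 11.79 in CD49b+ cells, 11.94, 12.17 and 11.85 in CD25+ cells, 11.47 and 11.65 in CD4+ cells of injected mice, and 11.34 and 11.41 in CD4+ cells of naive mice. Its subset arrays all lay above the CD4+ arrays by a small margin, 0.29 ± 0.12 in CD49b+ cells (adjusted p = 0.0613) and 0.43 ± 0.12 in CD25+ cells (adjusted p = 0.018), and the second call was lost without CD4+ injected replicate 1 (adjusted p = 0.134). Against CD4+ cells of naive mice the CD49b+ difference of Pcna was 0.48 and called (adjusted p = 0.00856). On their used probe sets Rfc2 and Rfc3 were not called, with 0.27 and 0.18 in CD49b+ cells and 0.25 and 0.40 in CD25+ cells. Rfc3 was called in CD25+ cells against naive mice (0.50, adjusted p = 0.0473). A further probe set of Rfc2 (0.52 and 0.47) and the other of Rfc3 (1.33 and 1.52) were called in both subsets.

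Replication protein A, which coats single-stranded DNA, showed small differences. Rpa1, the large subunit, read 11.11, 11.04 and 11.10 in CD49b+ cells, 10.73, 10.93 and 10.85 in CD25+ cells, 10.94 and 10.99 in CD4+ cells of injected mice, and 10.91 and 10.98 in CD4+ cells of naive mice. It was called in neither subset against CD4+ cells, with 0.12 ± 0.08 in CD49b+ cells and -0.13 ± 0.08 in CD25+ cells. Rpa2 read 6.77, 6.80 and 6.72 in CD49b+ cells, 6.86, 7.04 and 6.78 in CD25+ cells, 6.28 and 6.32 in CD4+ cells of injected mice, and 6.24 and 6.19 in CD4+ cells of naive mice, with differences of 0.46 ± 0.09 and 0.60 ± 0.09 (adjusted p = 0.00198 and 0.000718). Rpa3 read 9.0, 9.23 and 9.15 in CD49b+ cells, 8.53, 9.06 and 9.01 in CD25+ cells, 8.50 and 8.47 in CD4+ cells of injected mice, and 8.74 and 8.92 in CD4+ cells of naive mice. Its CD25+ arrays overlapped the naive ones, and the differences were 0.64 ± 0.15 (adjusted p = 0.00589) and 0.38 ± 0.15 (adjusted p = 0.0726). Against CD4+ cells of naive mice the CD49b+ difference of Rpa3 was 0.29 and not called (adjusted p = 0.142).

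The next comparison set the sorted subsets against each other. In CD49b+ cells 12 of the 47 genes were called higher than in CD25+ cells, against 17.5% of all tested genes, and 0 were called lower, against 12.4% of all tested genes. The 12 include Cdc6, Ccne2 and E2f1, which entered the test through the subset arrays and are no support. In this limma fit, 16 members were higher and 0 lower at an unadjusted p under 0.05. The share of all tested genes at that threshold was not counted, so the 16 cannot be weighed. The median difference was 0.23, against 0.03 over all tested genes. The CD49b+ mean was the greater one for 38 of the 47, against 6083 of the 11037 tested genes. Arrays numbered 2 and 3 deviated together across these groups, and those numbered 1 only weakly. With the number as a block, 20 members were called higher and 0 lower, against 2347 and 1677 of the 11037 tested genes.

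The genes called higher in CD49b+ cells came from 7 of the 11 roles. The cyclins led, with 1.38 ± 0.25 for Ccne2 (2.60-fold, adjusted p = 0.00248), the only one past 2-fold, and 0.98 ± 0.15 for Ccne1 (adjusted p = 0.000955). Chaf1b followed with 0.76 ± 0.11 (adjusted p = 0.000864), Clspn with 0.73 ± 0.14 (adjusted p = 0.00303) and Cdc6 with 0.72 ± 0.21 (adjusted p = 0.0282). Pole2, Pole, Cdc45, E2f1, Pola1 and Gmnn lay between 0.51 and 0.61 (adjusted p between 0.000732 and 0.0186). Rpa1 had the smallest called difference, 0.25 ± 0.07 (adjusted p = 0.0271). In each of these 12 genes, all 3 CD49b+ arrays lay above all 3 CD25+ arrays. Such a gap was found for 12 of the 47 members and for 2683 of the 11037 tested genes, a similar share.

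All 3 G1/S regulators were called higher here, but Ccne2 and E2f1 entered the test through the subset arrays, so this count is no support. Called genes numbered 1 of 10 in the helicase and 0 of 5 each in the clamp and loader and the deoxynucleotide genes. With 17.5% of all tested genes called higher, counts this small do not set these roles apart. The 6 subunits of the MCM ring gave -0.01 ± 0.09 for Mcm4, -0.02 ± 0.12 for Mcm6, -0.01 ± 0.13 for Mcm7, 0.11 ± 0.15 for Mcm5, 0.26 ± 0.12 for Mcm2 and 0.25 ± 0.15 for Mcm3, none called without the block. Rrm2 had a difference of 0.81 ± 0.31 that did not pass without the block (adjusted p = 0.0751) and passed with it (adjusted p = 9.59e-05). Tyms (0.49), Tk1 (0.36), Uhrf1 (0.39), Mcm10 (0.36), Mcm3 (0.25), Dbf4 (0.39) and Prim1 (0.33) likewise passed with the block, with adjusted p between 0.00326 and 0.0444. Genes called in one subset and not in the other against CD4+ cells did not differ by a call between the subsets themselves, either without the block or, Prim1 apart, with it: the differences were 0.26 for Rpa3, 0.17 for Pola2, 0.33 for Prim1, -0.14 for Pcna and -0.20 for Pold2 (adjusted p without the block between 0.184 and 0.39).

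**Figure D4:**
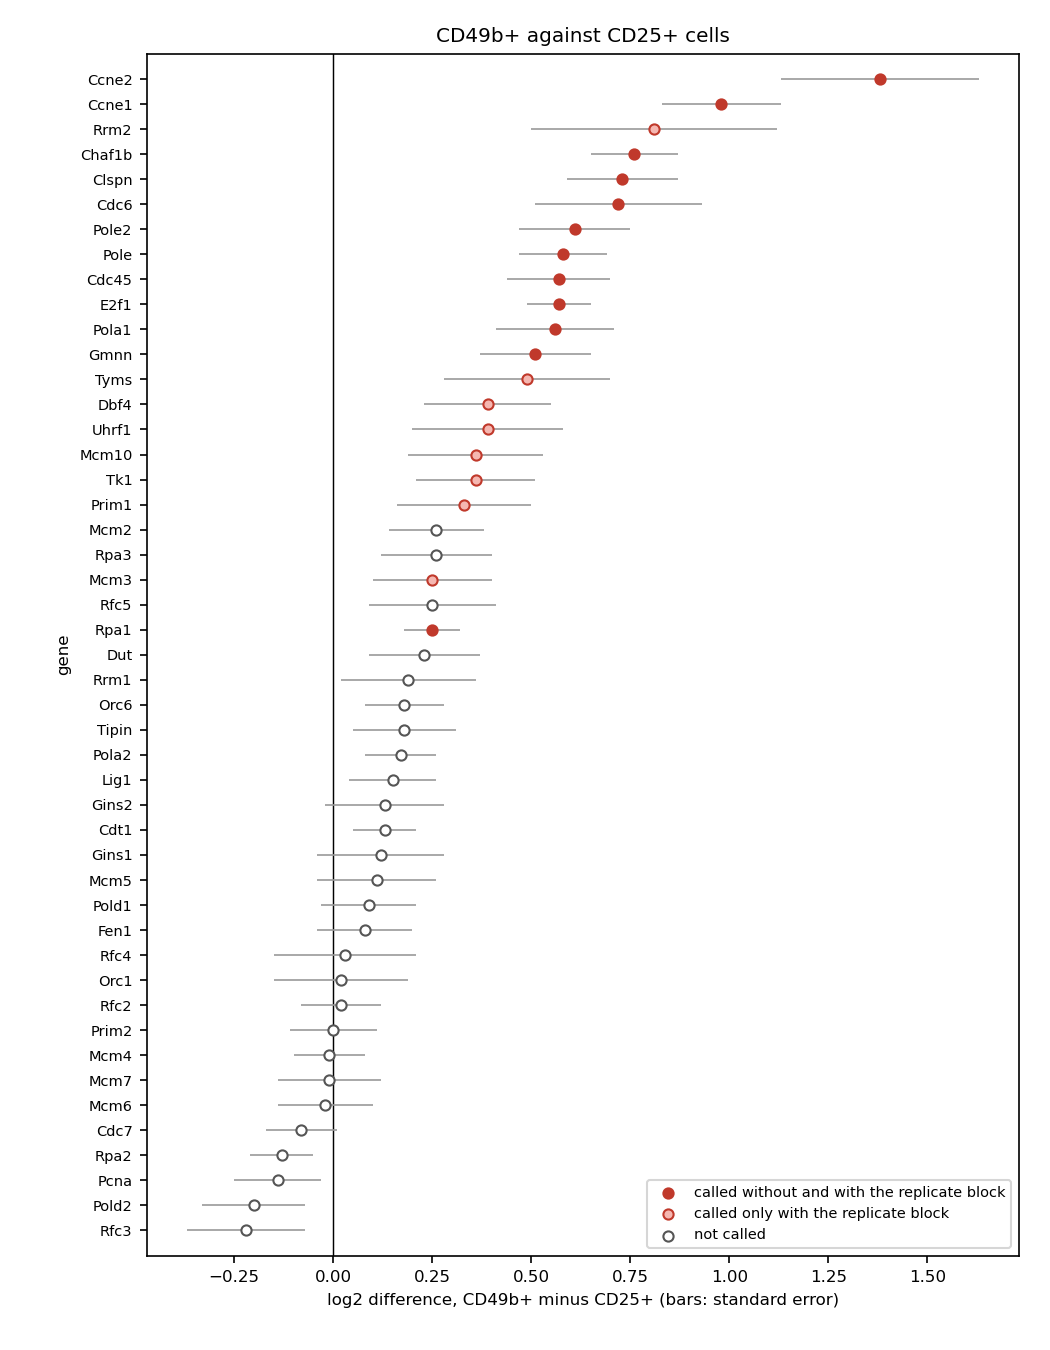
Each point is the log2 difference of CD49b+ from CD25+ cells for a gene, in order of size, with its standard error as a bar. The 12 filled points were called with and without the replicate number as a block, the pale ones only with it, and the lowest values, down to -0.22 for Rfc3, were not called.

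Single arrays weighed on this comparison. CD25+ replicate 1 had the lowest value of its group for 43 of the 47 genes, and without it the median difference was 0.09 and 10 genes were called higher. Without CD49b+ replicate 3, which was the highest of its group for 31 genes, 8 were called higher. Among fits that left out 1 array, the calls of Cdc6 and Rpa1 were each lost in 4. Those of Gmnn and Pola1 were each lost in 2, and the other called genes kept theirs. The log2 signal of Gapdh at its 3' end minus that at its 5' end, a sign of RNA integrity, was 0.69, 0.23 and 0.46 on the CD49b+ arrays and 0.58, 0.37 and 0.60 on the CD25+ arrays, against 0.26 and 0.13 in CD4+ cells of injected mice and -0.01 and 0.06 in CD4+ cells of naive mice. The probe sets of the poly-A control transcripts averaged 5.55, 5.36 and 7.23 on the CD49b+ arrays and 5.74, 5.86 and 7.04 on the CD25+ arrays, highest on both replicates numbered 3, against 5.80 and 4.94 in injected and 4.81 and 5.30 in naive mice. The part of these measures in the differences was not tested.

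The last comparison asked whether these genes differed in the whole CD4+ population between injected and naive mice. Of the 47 genes, 0 were called higher in injected than in naive mice, against 0.0272% of all tested genes, and 0 were called lower, against 1.36%. At an unadjusted p under 0.05, the same limma fit had 3 higher (Orc6, Dbf4 and Cdt1) and 2 lower (Mcm6 and Lig1), names given after their values were seen. All tested genes were not counted at that threshold either. The median difference was -0.08, against -0.03 over all tested genes. The injected CD4+ mean was the lowest of the 4 groups for 30 genes. The median over all tested genes was also lowest on those arrays, at 6.76 and 6.80, against 6.86 to 7.02 on the others. The share of all tested genes lowest there was not counted.

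Rrm2 had the most negative difference, -0.73 ± 0.38 (adjusted p = 0.486), with 6.11 and 6.61 in injected and 6.87 and 7.31 in naive mice. Uhrf1 followed with -0.46 ± 0.23 (adjusted p = 0.461) and Tyms with -0.39 ± 0.25 (adjusted p = 0.618). On the other side stood Orc6 with 0.48 ± 0.12 (adjusted p = 0.113), Dbf4 with 0.48 ± 0.20 (adjusted p = 0.356), Orc1 with 0.41 ± 0.21 (adjusted p = 0.488) and Cdt1 with 0.30 ± 0.10 (adjusted p = 0.222). The other genes of origin licensing and firing gave 0.06 for Gmnn, -0.07 for Cdc6 and -0.22 for Cdc7. None of these differences passed the test.

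Several genes had more than 1 probe set, and these did not always move together. The 47 genes had 81 probe sets, and 27 genes had several. Orc1 differed most between its probe sets. The used one gave -0.43 and -0.45 in CD49b+ and CD25+ cells against CD4+ cells of injected mice, neither called, and the other gave 1.28 and 1.00 (adjusted p over all probe sets 1.33e-05 and 8.51e-05). Rfc3 likewise gave 0.18 and 0.40 on the used probe set and 1.33 and 1.52 on the other (adjusted p = 9.73e-05 and 8.9e-05).

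Prim2 held both directions, with 1.06 in both subsets on the used probe set and -0.70 and -0.82 on a further one (adjusted p = 0.000375 and 0.000294). Rpa2 was called higher on its used probe set, while the other gave -0.23 and -0.04, neither called. Prim1 was larger on its other probe set, 1.53 and 1.16. Mcm3 and Dut, called on their used probe sets, gave 0.23 and -0.01 and 0.17 and 0.14 on their others, none called. A further probe set of Rfc2 gave 0.52 and 0.47, both called, where the used one was not. Rrm1 on its other probe set was called in CD49b+ cells (1.33) and not in CD25+ cells (0.81), and Cdc7 turned to 0.11 and 0.03, neither called.

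Among genes with large differences, Rrm2 gave 2.96 and 1.98 and Uhrf1 1.44 and 1.05 on their other probe sets, all called. Other genes had further probe sets that did not pass the filter and showed little difference. Those of Tyms ran from -0.19 to 0.36 in CD49b+ cells and from -0.20 to 0.32 in CD25+ cells, that of Clspn gave 0.26 and 0.03, that of Mcm5 0.28 and 0.14, and those of Mcm10 -0.10 and 0.05, and -0.25 and -0.26. The values of these genes thus rest on the probe set used, and which transcript each one reads was not tested.

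**Figure D5:**
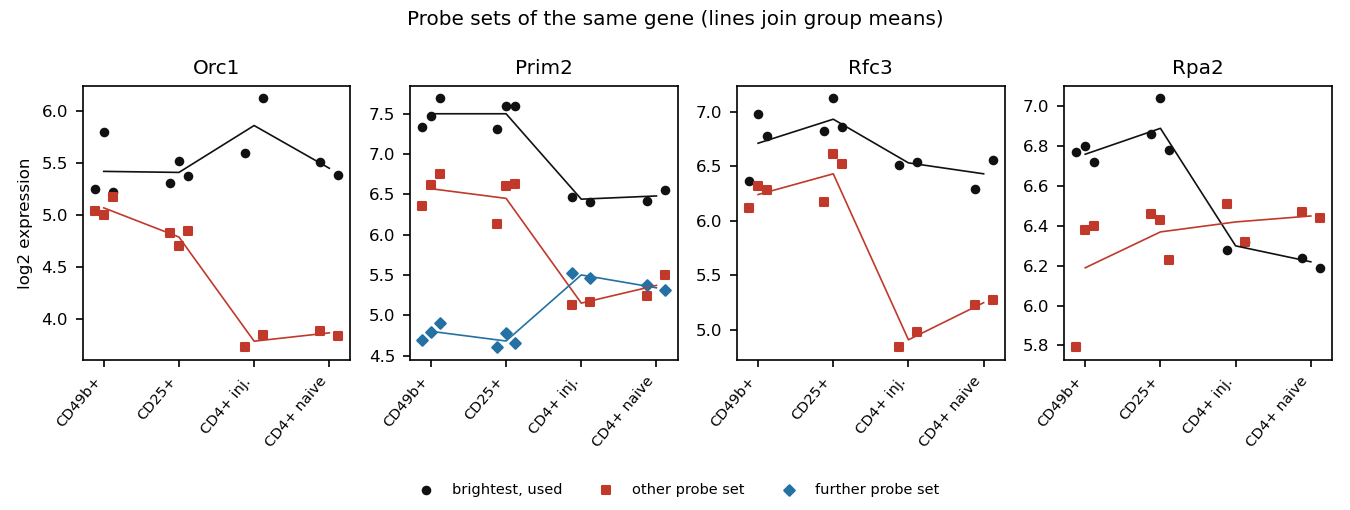
Log2 values of each probe set of 4 genes on each array, with lines joining the group means from CD49b+ to naive CD4+ cells. In Orc1 the used probe set lies lower and the other one higher in the subsets than in CD4+ cells of injected mice, and in Prim2 a further probe set lies lower, by -0.70 and -0.82.

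Other genes of the same pathways had median differences closer to 0. Of 28 tested replication genes from a wider list of 36, 12 were called higher and 4 lower in CD49b+ cells, against 29.9% and 23.5% of all tested genes, and 9 and 3 in CD25+ cells, against 20.8% and 17.8%, with median differences of 0.22 and 0.16. Hells, a chromatin remodeller of replicating cells, was higher by 2.48 ± 0.15 and 2.47 ± 0.15, and Pif1, a DNA helicase, by 2.20 ± 0.38 in CD49b+ cells. Pif1 lay under the array median on all 4 CD4+ arrays and entered the test through the subset arrays, so its difference is a description. Asf1b, a histone chaperone, gave 1.40 and 0.84, and Dna2, a nuclease of Okazaki fragments, 1.31 and 0.63. Pole4, a small subunit of polymerase epsilon, was lower too, with -0.39 and -0.52, as was Ticrr, an origin firing factor, with -0.32 and -0.47. Against naive mice, Dna2 was lower in CD4+ cells of injected mice, with a difference of -0.84 ± 0.17 (adjusted p = 0.0444), the one call among these 28.

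Nucleotide synthesis genes outside the 48 were mostly lower where called between the subsets. Of 30 tested genes from a list of 34, 8 were called higher and 2 lower in CD49b+ cells against CD4+ cells, where 29.9% and 23.5% of all tested genes were, so the share called higher was near that of all genes. In CD25+ cells 13 were called higher and 0 lower, against 20.8% and 17.8% of all tested genes. Between the subsets 1 was called higher in CD49b+ cells and 8 lower, against 17.5% and 12.4% of all tested genes, with a median of -0.12. Cmpk1, a pyrimidine nucleotide kinase, was the higher one, with means of 11.11 in CD49b+ cells and 9.97 in CD25+ cells (1.13 ± 0.12, adjusted p = 0.000102). Shmt1, an enzyme of one-carbon metabolism, averaged 6.98 in CD49b+ and 7.84 in CD25+ cells (-0.85 ± 0.20, adjusted p = 0.00996), and Samhd1, which breaks down deoxynucleotides, 10.05 and 10.83 (-0.78 ± 0.08, adjusted p = 6.1e-05). Dctd, which makes dUMP from dCMP, was lower as well, with -0.49 ± 0.09, but its values were dim and it entered the test through the CD25+ arrays, where it was highest. None of the 5 deoxynucleotide genes among the 48 was called between the subsets without the block.

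Markers of other cells that a sort could hold were read beside these results. The mean log2 value of 7 of 9 B cell markers (4 above the array median on 2 arrays) was 4.56 to 4.62 in CD49b+ cells, 4.77 to 4.85 in CD25+ cells, 4.70 to 4.79 in CD4+ cells of injected mice and 4.87 to 4.90 in CD4+ cells of naive mice. For 11 of 12 myeloid and dendritic cell markers the ranges were 4.55 to 4.63, 4.86 to 5.02, 5.04 to 5.07 and 5.41 to 5.56 in the same order, and for 5 of 9 erythroid precursor markers 5.84 to 6.06, 6.12 to 6.33, 6.01 to 6.18 and 6.15. For 6 of 8 germinal centre and plasma cell markers they were 5.88 to 6.15, 6.16 to 6.55, 5.91 to 6.03 and 5.91 to 5.92. The mean of 8 of 8 natural killer cell markers was highest in CD49b+ cells, at 5.58 to 5.95, against 4.98 to 5.24, 4.99 to 5.15 and 5.28 to 5.39 in the CD25+, injected CD4+ and naive CD4+ groups. Of the 6 tested markers, 4 were called higher in CD49b+ cells than in CD4+ cells of injected mice and 2 lower. Gzma and Nkg7, of cytotoxic granules, averaged 8.22 and 8.25 in CD49b+ cells and 4.24 and 5.47 in CD4+ cells of injected mice. Tyrobp, a signalling adaptor, and Eomes, a transcription factor, averaged 5.10 and 5.55 in CD49b+ cells and 6.91 and 6.46 in CD4+ cells of injected mice. Against CD25+ cells, 3 of the 6 were called higher in CD49b+ cells and 0 lower, and 3 had negative differences. The part of these cells in the replication gene differences was not tested.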

How the data were processed

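RNA of sorted cells (100 ng per array) was measured on 10 Affymetrix mouse arrays. The authors deposited log2 values, for which the submitters' processing notes name GCRMA and, as software, Expression Console 1.2.1 of Affymetrix. GCRMA corrects background, normalizes and summarises probes; the sources used here do not give whether all arrays were normalized jointly, which bears on any difference in level between groups. Of 45037 probe sets beside controls, 28898 had 1 gene symbol in the platform annotation, 551 several and 15588 none there. Each gene was represented by its brightest probe set (highest mean over all arrays), and genes with at least 2 arrays above the 50th percentile of their array were tested.

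A single limma fit (limma 3.58.1, R 4.3.3; lmFit and eBayes) of the 4 group means, leaving 6 residual degrees of freedom, provided each log2 difference with its standard error and two-sided p-value. P-values were adjusted by the Benjamini-Hochberg method over the 11037 genes of each comparison, and genes with an adjusted p under 0.05 were called. The script was tested on simulated data. Replicate numbers come from the labels. Deviations from the group means of same-numbered CD49b+ and CD25+ arrays correlated at 0.16, 0.37 and 0.64 across genes. Different-numbered arrays of these groups correlated at -0.50 to 0.13. The number was taken to pair those arrays, although for replicate 1 the margin was small.

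The 48 genes, the further lists and the tests were chosen with earlier results of these data known. Values on every array are given for up to 3 genes of each role with the greatest range of group means, and for genes called against their role. Of the further lists, up to 4 called genes with the greatest change per comparison are named, with Mki67, Top2a, Ccna2, Cd3e, Itga2, Il2ra and Foxp3. Cdk2, Gins3 and Gins4 were named after their values were seen. Alternatives were no filter or a 70th percentile filter, quantile normalization, median centring, a trend in the prior, the mean of a gene's probe sets, a 2-fold threshold, the replicate block, only the groups compared, naive CD4+ cells as comparator, and leaving out single arrays. A group cut to 1 array by this took its spread from the other groups.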

Additional observations from a re-analysis of the deposited data

How the results depend on the processing

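Against CD4+ cells of injected mice, the direction of the members' median and the excess of higher over lower calls held under every alternative run. Fits that left out 1 array gave 33 to 36 members higher and 1 to 2 lower in CD49b+ cells (median 1.09 to 1.30), 26 to 37 and 1 to 2 in CD25+ cells (median 0.68 to 0.89), and 8 to 15 higher and 0 lower in CD49b+ against CD25+ cells (median 0.09 to 0.31). Injected against naive gave 0 calls in all of them (median -0.21 to -0.04). The median in CD49b+ cells was 1.34 with median centring, 0.81 with the mean of the probe sets and 0.98 against naive CD4+ cells, and in CD25+ cells 0.93 with median centring and 1.00 with the 70th percentile filter. The number called lower was 2 in CD49b+ cells with quantile normalization, the replicate block or naive CD4+ cells, and 0 at 2-fold. It was 2 in CD25+ cells with those 3 settings and when a gene's probe sets were averaged. At 2-fold, 22 were higher in CD25+ cells and 1 in CD49b+ against CD25+ cells. The replicate block gave 20 higher in CD49b+ against CD25+ cells and 37 and 36 higher against CD4+ cells. Deviations of injected CD4+ replicate 2 and CD49b+ replicate 2 correlated at 0.52. Those of injected CD4+ replicate 1 correlated at 0.09 with CD49b+ replicate 1 and at 0.45 with CD49b+ replicate 3, so the number pairs these arrays only in part. In injected against naive CD4+ cells the block gave 1 higher (Orc6) and 1 lower (Rrm2). There the numbers do not pair the arrays (same-numbered deviations correlated at -0.21). With the naive numbers crossed, an alternative chosen after seeing the data, 1 was higher and 0 lower. Orc1 turned to 0.42 in CD49b+ cells with the mean of its probe sets, and Orc6 to 0.41 against naive CD4+ cells. Rpa1 lost its call in CD49b+ against CD25+ cells when only those groups were fitted (adjusted p = 0.0676). Apart from the differences in probe sets and comparator that these settings introduce, the cause was not tested. Groups of 2 or 3 arrays limit every call, and Cdc6, Ccne2, E2f1 and Tk1 lay under, and Gins1, Clspn and Cdc45 near, the array median in CD4+ cells of injected mice, so their fold changes rest on dim CD4+ values.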

Other observations

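The E2F and RB family, transcription factors and pocket proteins that control many S phase genes, was read as a list of 12 tested genes. In CD49b+ cells 7 were called higher and 1 lower than in CD4+ cells of injected mice (median 0.98), against 29.9% and 23.5% of all tested genes, and in CD25+ cells 7 and 1 (median 0.62), against 20.8% and 17.8%. E2f3, E2f7 and E2f8 lay under the array median on all 4 CD4+ arrays and entered the test through the subset arrays, so their differences from CD4+ cells are descriptions and the counts no support. E2f8, an atypical repressor E2F that is itself expressed in S phase, averaged 7.58 in CD49b+ cells, 6.51 in CD25+ cells, 4.42 in CD4+ cells of injected mice and 4.51 in CD4+ cells of naive mice, with differences of 3.16 ± 0.22 and 2.09 ± 0.22 from CD4+ cells of injected mice. Between the subsets, E2f2 (1.10 ± 0.20), E2f8 (1.07 ± 0.19) and E2f7 (0.74 ± 0.19) were higher in CD49b+ cells, and Tfdp2 (-0.67 ± 0.09) and E2f5 (-0.62 ± 0.09) were lower, with adjusted p between 0.00034 and 0.0143. E2f3, an activator, had a difference of 0.98 ± 0.10 from CD4+ cells in both subsets.

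Of 5 genes of cycling cells outside the 48, 5 were called higher in CD49b+ cells and 4 in CD25+ cells, against 29.9% and 20.8% of all tested genes. Cdk2, a kinase partner of cyclin E, gave 0.37 (adjusted p = 0.0312) and 0.07 (adjusted p = 0.684). Top2a, the topoisomerase of dividing cells, was higher by 3.60 ± 0.32 in CD49b+ cells and 2.54 ± 0.32 in CD25+ cells, and Ccna2, cyclin A2, by 2.96 ± 0.41 and 1.80 ± 0.41. Mki67 was higher by 4.19 ± 0.26 and 3.19 ± 0.26, and by 1.00 ± 0.23 in CD49b+ over CD25+ cells (adjusted p = 0.00857). In CD4+ cells of injected mice, Mki67 and Top2a differed from naive mice by -1.08 ± 0.28 and -0.94 ± 0.35, neither called (adjusted p = 0.114 and 0.297).

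A pair of further measures ran across the 47 genes. The median of the 47 values on an array was 7.51, 7.76 and 7.87 in CD49b+ cells, 7.32, 7.60 and 7.65 in CD25+ cells, 6.51 and 6.54 in CD4+ cells of injected mice and 6.73 and 6.87 in CD4+ cells of naive mice. CD49b+ replicate 1 was the lowest of its group for 36 genes, injected CD4+ replicate 1 lay below replicate 2 for 40, and naive CD4+ replicate 1 below replicate 2 for 38. The word CCAAT, the core of the NF-Y site, stood in a promoter of 55.3% of the 38 genes, against 42.4% of tested genes and 41.1% of all listed genes.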
